A study of Mus musculus with 96 samples.

Results

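The genes described here are the translation initiation and elongation factors of the mouse, taken as every gene whose symbol begins with Eif1 to Eif6 or with Eef1 or Eef2. The rule found 62 of the 15895 genes of the table. Of these, 55 are factors or close relatives of factors. The other 7 are regulators that are described apart: 4 eIF2 kinases (Eif2ak1 to Eif2ak4) and 3 repressors that bind the cap-binding protein eIF4E (Eif4ebp1 to Eif4ebp3).

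Translation begins when eIF2, loaded with GTP and initiator tRNA, joins the small ribosomal subunit together with eIF1, eIF1A, eIF3 and eIF5. The eIF4F complex, made of the cap-binding eIF4E, the helicase eIF4A and the scaffold eIF4G, brings the mRNA. After the start codon is found, eIF5B joins the large subunit, and eEF1A, eEF2 and eIF5A then carry elongation. Growth factors in serum are known to raise translation quickly through kinases that act on these proteins, and the mRNA levels reported here are a separate and slower layer.

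RNA was sequenced from primary CF-1 mouse embryonic fibroblasts (MEFs) taken from E13 embryos. The cells were kept for 36 h in medium with 0.5% fetal calf serum, and serum was then raised to 20%. There are 2 time courses, named Cycle 1 (63 libraries up to 38 h) and Cycle 2 (32 libraries up to 27 h), each with a library from 1 h before serum and one from 0 h, called starved here. All libraries share the cell source and the starvation, and the labels do not say whether the courses came from separate cultures or embryos. The p-values therefore measure only a spread between these 2 courses. It is what remains once a constant difference between them is removed, pooled over the windows of hours that were compared.

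Depth recovered from the smallest step of the values was between 4352235 and 12551892 reads per library. All 11 fibroblast markers looked up stood above 100 in the starved libraries, with a summed value of 405521 to 570822, and the sum was as low as 204137 after serum. The 4 endothelial markers summed to 176 to 272 and the 4 epithelial markers to 109 to 275, and over all tested libraries to 42.2 to 272 and 76.1 to 524. Of 7 macrophage and blood markers 5 are in the table, at a sum of 1043 to 3309 in starved cells and 578 to 4598 over all tested libraries. The 3 neural markers summed to 658 to 1109 in starved cells and up to 4806 afterwards, and the 3 muscle markers to 609 to 1667 in starved cells and as low as 313 afterwards. Their part in the results was not tested. The Cycle 1 library of 24.5 h stood apart: its median log2 gap to the libraries next to it in time was 0.411. Among libraries of Cycle 1 that are not its neighbours the largest gap was 0.235, and the 24, 25 and 26 h libraries, which enter the tests, had gaps of 0.262, 0.234 and 0.227. The library of 24.5 h is absent from the fit reported here and present only in the alternative that uses all libraries of a window, and 26 of the 61 tested genes have their highest or lowest Cycle 1 value there. In bulk cultures fewer cells of a type and less RNA per cell cannot be told apart.

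Values are normalized read counts, which are not divided by gene length. Changes are log2 differences of (value + 1) between a window of hours and the starved libraries of the same Cycle, averaged over the 2 Cycles, with the standard error of the limma fit. A gene was called when its adjusted p was under 0.05 over the 12824 genes tested. Of the 55 factors 54 entered the test. Eef1a2, the eEF1A form of muscle and neurons, had a mean value under 10 and did not.

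Translation factor mRNAs rose after serum in larger numbers with time. At 1 to 1.5 h, 4 of 54 factors were higher than in starved cells, beside 5.44% of all genes. In limma 0 were lower by adjusted p, 2 were lower at an unadjusted p under 0.05, and edgeR called 0, beside 14.7% of all genes in limma. At 2 to 3 h, 12 were higher and 6 lower, beside 13.5% and 38.5% of all genes. At 4 to 6 h, 18 were higher and 5 lower, beside 17.8% and 33.9%.

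From 7 to 10 h, 19 of the 54 factors were higher and 4 lower, beside 18.7% higher and 28.1% lower among all genes. The count then grew to 26 higher and 3 lower at 11 to 14 h (all genes 20% and 26.3%). At 15 to 18 h it was 26 higher and 2 lower (20% and 25.9%). At 19 to 23 h it was 28 higher and 3 lower (21.3% and 28.9%), and at 24 to 27 h 27 higher and 3 lower (20.1% and 30.1%). Over all 8 windows together the F test called 37 of 54, beside 81.1% of all genes.

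The median change of the 54 factors was 0.18 at 2 to 3 h, 0.27 at 7 to 10 h and 0.45 at 24 to 27 h. The median of all genes was -0.32, -0.12 and -0.08 at the same windows, and the count at 2 to 3 h depended on the scaling. Under a median of ratios scaling the split at 2 to 3 h was 28 higher and 4 lower, beside 20.4% and 27.2% of all genes, and the median of all genes was -0.10. In edgeR with its own scaling it was 31 higher and 3 lower, beside 22.9% and 24.6%, with a median of -0.03. At 7 to 10 h the median of ratios gave 25 and 3, beside 20% and 26.4%, and edgeR gave 28 and 2, beside 23.9% and 23.4%. Eif3j1 and Eif3j2, near-identical genes of 1 eIF3 subunit, hold the same value in all 95 libraries and count as 2 genes in these numbers.

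**Figure D1:**
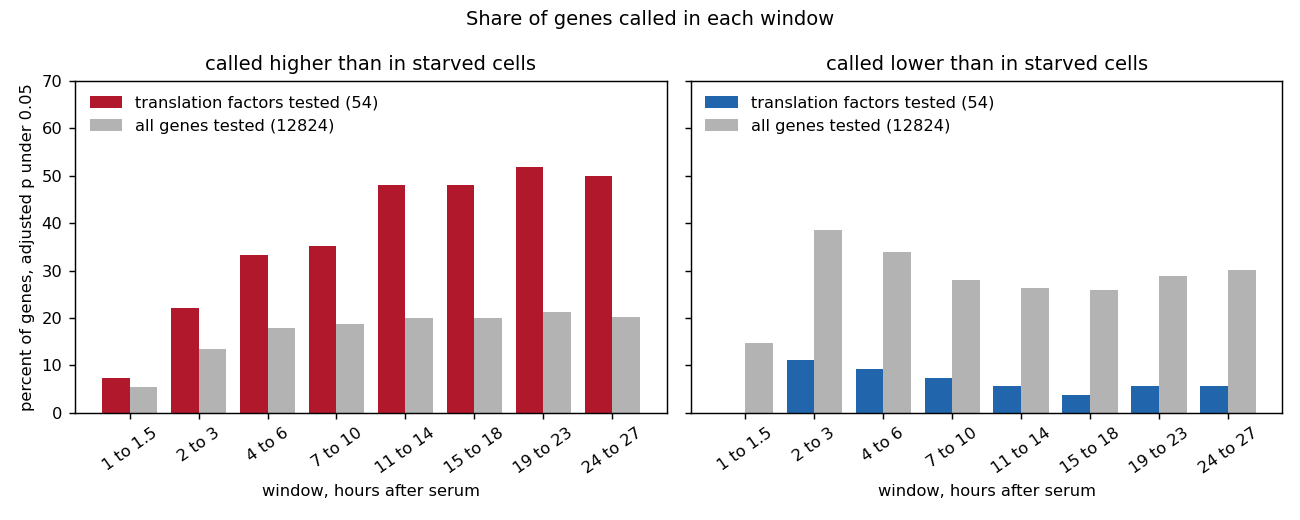
Percent of genes called higher (left) and lower (right) than in starved cells, by window of hours after serum, for the 54 translation factors tested (coloured bars) and all 12824 genes tested (grey bars). The factors reach 50% higher at 24 to 27 h against 20.1% of all genes, and stay at or below 11.1% lower in every window.

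**Figure D2:**
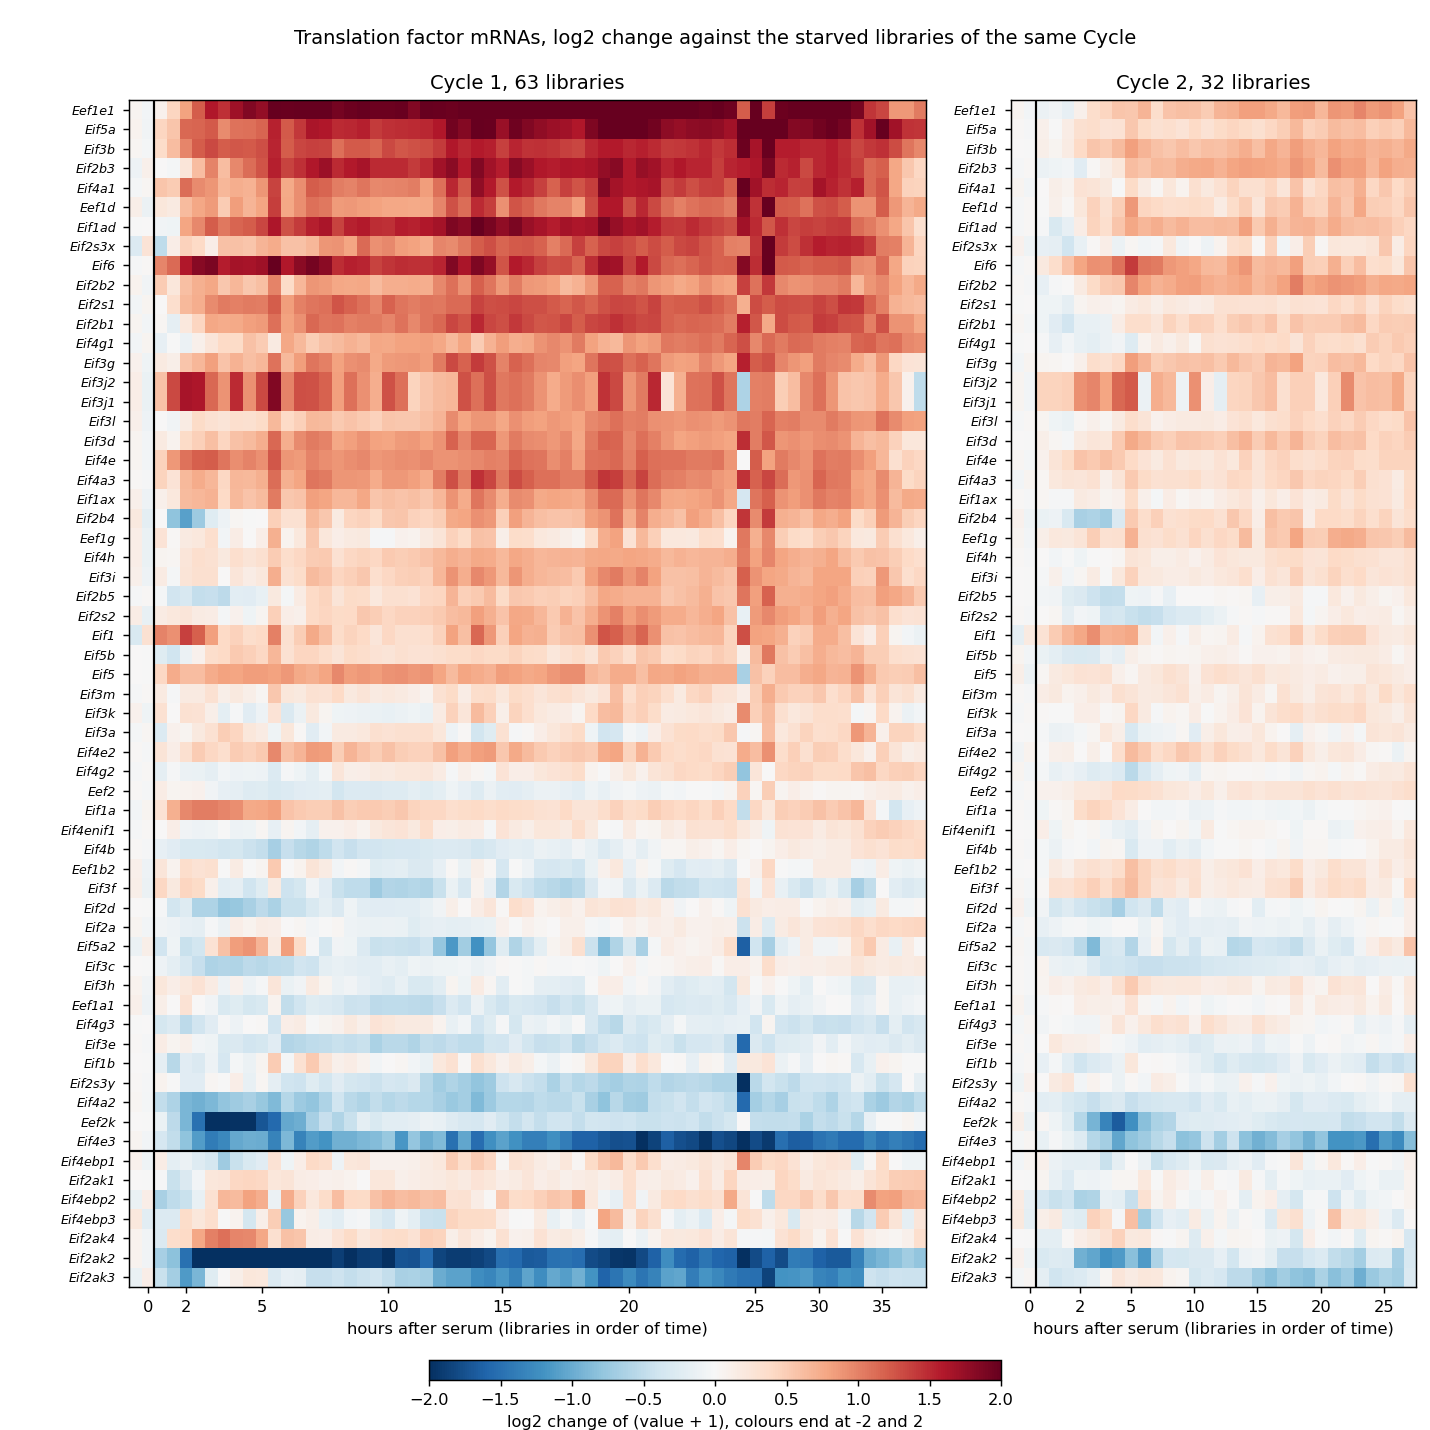
Log2 change of each tested gene in every library of Cycle 1 (left) and Cycle 2 (right), ordered by the change at 24 to 27 h, with the kinases and repressors under the horizontal line and the starved libraries left of the vertical line. Red is higher and blue lower than the starved mean of the same Cycle. The colours are paler in Cycle 2, and the column at 24.5 h of Cycle 1 breaks the pattern of its neighbours.

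Factors eIF1 and eIF1A act in the choice of start codon. Of the 5 genes with such a name 3 were higher at 2 to 3 h, Eif1, Eif1a and Eif1ad. Eif1ad is counted here by its name and its eIF1A domain, and was near the limit of the call (limma adjusted p = 0.048). Eif1 stood at 597 and 909 in the starved libraries of Cycle 1 and at 766 and 992 in those of Cycle 2, and at 1308 to 1902 (median 1577) in the libraries of 2 to 3 h. These groups do not overlap. The change was 0.96 ± 0.18 (SE, limma adjusted p = 0.0011), and by 7 to 10 h it was 0.26 ± 0.18 (limma adjusted p = 0.26).

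Its paralog Eif1b stood at 370 to 382 in the starved libraries and at 286 to 347 at 2 to 3 h, a change of -0.25 ± 0.18 that was not called (limma adjusted p = 0.26). Of Eif1's exonic 50-base words 32.4% occur elsewhere in the genome, and of Eif1b's 0%, so Eif1 may share reads with copies. Eif1a, which codes for an eIF1A, followed Eif1: it rose by 0.70 ± 0.14 at 2 to 3 h (limma adjusted p = 0.0020) and stood 0.23 ± 0.14 above starved at 7 to 10 h, not called. Its X-linked paralog Eif1ax was not called up to 10 h and rose by 0.64 ± 0.17 at 24 to 27 h (limma adjusted p = 0.011). Eif1ad, an eIF1A-domain gene, was at 287, 288, 433 and 443 in the starved libraries and at 671 to 864 at 7 to 10 h. It rose by 1.08 ± 0.25 there (limma adjusted p = 0.0053) and by 0.94 ± 0.25 at 24 to 27 h (limma adjusted p = 0.0097).

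Of the 4 genes for eIF2 subunits, 1 was higher at 7 to 10 h and 2 at 24 to 27 h. Eif2s1, the subunit that eIF2 kinases phosphorylate, stood at 523, 560, 906 and 919 in the starved libraries and at 1111 to 1342 at 24 to 27 h. It rose by 0.79 ± 0.23 there (limma adjusted p = 0.014), which was 2.35-fold in Cycle 1 and 1.28-fold in Cycle 2. Eif2s2 stood at 0.46 ± 0.18, at the edge of the call (limma adjusted p = 0.0501).

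The third subunit is encoded on both sex chromosomes. Eif2s3x (X) rose by 0.93 ± 0.28 at 24 to 27 h (limma adjusted p = 0.017), from 45.1 to 97.3 in starved cells to 102 to 259. Eif2s3y (Y) stood at 224 to 319 in starved cells and 203 to 299 at 24 to 27 h, and its change of -0.21 ± 0.16 was not called. The value of Eif2s3x rests on few unique bases, since 91.5% of its exonic 50-base words recur in the genome and 0% of those of Eif2s3y do.

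The eIF2B complex reloads eIF2 with GTP and sets how much active eIF2 a cell has. Of its 5 subunits 3 were higher at 7 to 10 h and 4 at 24 to 27 h. Eif2b3 (chr4:116692007-116759911, mm9, plus strand) had the largest change, from 178, 206, 280 and 292 in starved cells to 456 to 712 (median 519) at 24 to 27 h, with no overlap. It rose by 1.13 ± 0.23 at 7 to 10 h (limma adjusted p = 0.0030) and by 1.18 ± 0.23 at 24 to 27 h (limma adjusted p = 0.0023).

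Eif2b2 rose by 0.91 ± 0.15 at 24 to 27 h (limma adjusted p = 0.00079), with starved values of 334 to 387 and 608 to 935 late. Its fold was 2.09 in Cycle 1 and 1.69 in Cycle 2. Eif2b4 moved in both directions. It fell by 0.67 ± 0.17 on the log2 scale at 2 to 3 h (limma adjusted p = 0.0060), to 109 to 197 from 203 to 270, and was higher by 0.61 ± 0.17 at 24 to 27 h (limma adjusted p = 0.011). Eif2b1 rose by 0.78 ± 0.18 at 24 to 27 h (limma adjusted p = 0.0054). The catalytic subunit gene Eif2b5 stood at 0.46 ± 0.19 and was not called (limma adjusted p = 0.069). Of 2 other genes whose products bring initiator tRNA, Eif2d was lower at 2 to 3 h by -0.47 ± 0.11 (limma adjusted p = 0.0040) and Eif2a stayed within -0.09 and 0.04 in the windows of 2 to 3 h, 7 to 10 h and 24 to 27 h, not called.

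eIF3 is the large scaffold that holds the small subunit open for mRNA, and its subunits did not move alike. Of 14 genes 5 were higher and 1 lower at 7 to 10 h, and 8 were higher at 24 to 27 h. Eif3b, a core subunit, stood at 1678 and 1765 in starved Cycle 1 and at 2403 and 2425 in starved Cycle 2, and at 3825 to 6779 (median 4448) at 24 to 27 h. It rose by 0.91 ± 0.19 at 7 to 10 h (limma adjusted p = 0.0032) and by 1.19 ± 0.19 at 24 to 27 h (limma adjusted p = 0.00073).

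The pair Eif3j1 and Eif3j2 was the earliest of these genes, called already at 1 to 1.5 h by 0.71 ± 0.14 (limma adjusted p = 0.0055). The pair stood at 1.18 ± 0.14 at 2 to 3 h (limma adjusted p = 7.9e-05), but on values of only 20.1 to 25.8 in starved cells. Eif3g, Eif3d and Eif3l, which code for other subunits, rose by 0.76 ± 0.16, 0.72 ± 0.14 and 0.72 ± 0.16 at 24 to 27 h. The lower gene was Eif3e, at -0.35 ± 0.12 at 7 to 10 h (limma adjusted p = 0.039), a call that 5 of the other settings lose. Of its exonic 50-base words 27.7% recur in the genome. Eif3c was lower at 4 to 6 h by -0.48 ± 0.14 (limma adjusted p = 0.015) and back at 0.02 ± 0.14 by 24 to 27 h. Eif3a, Eif3f, Eif3h and Eif3k were not called at 7 to 10 h or at 24 to 27 h, with changes of -0.07 to 0.30.

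The eIF4 genes code for the cap-binding complex and its helpers. Of 10 genes, 3 were higher and 2 lower at 7 to 10 h, and 4 were higher and 2 lower at 24 to 27 h. Eif4e, the cap-binding protein itself, stood at 375 and 407 in starved Cycle 1 and at 524 and 558 in starved Cycle 2. It reached 778 to 904 by 2 to 3 h and stood at 683 to 906 at 24 to 27 h, above every starved library in both windows. It rose by 0.86 ± 0.16 at 2 to 3 h (limma adjusted p = 0.0010). The rise was 0.58 ± 0.16 at 7 to 10 h and 0.71 ± 0.16 at 24 to 27 h. Of the exonic 50-base words of Eif4e 34.4% recur in the genome, so its value may share reads with copies.

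Eif4e3, a paralog that also binds the cap, went the other way throughout. Its starved values were 263 and 244 in Cycle 1 and 166 and 175 in Cycle 2, and the libraries of 24 to 27 h stood at 59.4 to 94.0 (median 71.7). All of these lie below the lowest starved library. The change was -0.79 ± 0.17 at 7 to 10 h (limma adjusted p = 0.0040) and -1.47 ± 0.17 at 24 to 27 h (limma adjusted p = 0.00010), to 0.30 of the starved level in Cycle 1 and 0.44 in Cycle 2. Eif4e2, a cap-binding paralog known as a repressor, rose by 0.53 ± 0.14 at 7 to 10 h (limma adjusted p = 0.0092) and stood at 0.27 ± 0.14 at 24 to 27 h, not called. Per kb of exon the starved levels were 162 for Eif4e, 111 for Eif4e2 and 37.2 for Eif4e3. Of the exonic 50-base words of Eif4e2 and of Eif4e3 0.7% recur in the genome, far less than for Eif4e.

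The helicase paralogs Eif4a1 and Eif4a2 changed in opposite directions. Eif4a1 stood at 387, 411, 690 and 640 in the starved libraries and at 873 to 1274 at 24 to 27 h. It rose by 0.62 ± 0.23 at 7 to 10 h (limma adjusted p = 0.045, a call lost with 5 single libraries left out and under 2 of the other settings) and by 0.96 ± 0.23 at 24 to 27 h (limma adjusted p = 0.0057). Eif4a2 stood at 1810, 1730, 1292 and 1261 in the starved libraries and fell to 909 to 1005 by 2 to 3 h, below all 4 of them. Its change was -0.66 ± 0.13 there (limma adjusted p = 0.0017), -0.47 ± 0.13 at 7 to 10 h and -0.37 ± 0.13 at 24 to 27 h (limma adjusted p = 0.037, not called without the Cycle block or in edgeR). In these values Eif4a2 was the higher of the paralogs in every starved library, and the course plots show the lines meeting. Of their exonic 50-base words 26.3% and 16.4% recur in the genome, and both values are averages over transcripts.

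Among the scaffolds, Eif4g1 rose by 0.78 ± 0.17 at 24 to 27 h (limma adjusted p = 0.0039), from 4332 to 6176 in starved cells to 8382 to 10104. Its paralog Eif4g3 stood at -0.16 ± 0.11 (limma adjusted p = 0.25). Eif4g2, a relative that lacks the eIF4E site, stood at 0.24 ± 0.11 (limma adjusted p = 0.090). Eif4h, a helper of the helicase, rose by 0.55 ± 0.14 at 24 to 27 h (limma adjusted p = 0.0081). Eif4b, the other helper, stood at -0.29 ± 0.11 at 7 to 10 h and 0.12 ± 0.11 at 24 to 27 h, neither called. Of the 2 genes with a name in this family but another role, Eif4a3 of the exon junction complex rose by 0.70 ± 0.20 at 24 to 27 h (limma adjusted p = 0.014) and Eif4enif1, which carries eIF4E into the nucleus, stood at 0.15 ± 0.10.

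**Figure D3:**
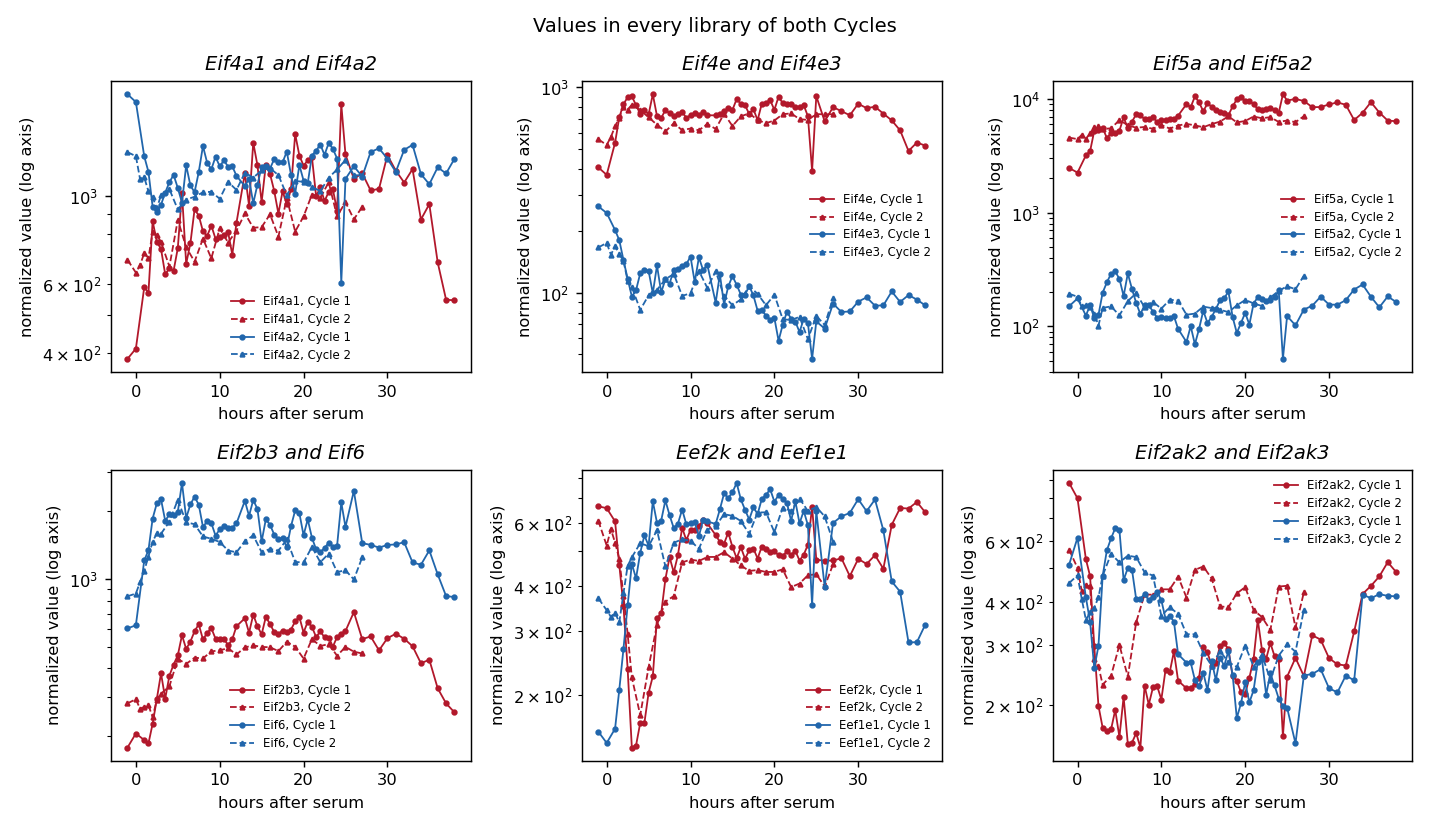
Normalized values (log axis) against hours after serum in every library of Cycle 1 (circles, solid lines) and Cycle 2 (triangles, dashed lines) for 6 pairs of genes. Eif4e rises while Eif4e3 falls, Eif4a1 and Eif4a2 converge, Eef2k dips at 2 to 6 h and returns in part, and Eif2ak2 and Eif2ak3 stand lowest early and late respectively.

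Of the genes that act around subunit joining, Eif6 had the largest rise at 7 to 10 h and 24 to 27 h. eIF6 keeps free large subunits from joining and also serves their assembly. It stood at 603, 623, 838 and 861 in starved cells and at 1466 to 2258 (median 1725) by 2 to 3 h, with no overlap. The rise was 1.32 ± 0.21 at 2 to 3 h (limma adjusted p = 0.00048), 1.42 ± 0.21 at 4 to 6 h and 0.92 ± 0.21 at 24 to 27 h (limma adjusted p = 0.0052). Its Cycle 1 mean was 2095 at 2 to 3 h and 1928 at 4 to 6 h, and its Cycle 2 mean 1550 and 1944. Eif5, which triggers GTP hydrolysis on eIF2, rose by 0.54 ± 0.16 at 7 to 10 h (limma adjusted p = 0.017). Its values were 1642 to 2704 in starved cells and 2649 to 3233 at 7 to 10 h, so the groups overlapped. Of its exonic 50-base words 21.7% recur in the genome. Eif5b rose by 0.40 ± 0.15 at 24 to 27 h (limma adjusted p = 0.041), a call lost under 3 of the other settings and with 3 single libraries left out.

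Eif5a, which helps the ribosome past proline runs and carries the amino acid hypusine, stood at 2472, 2248, 4566 and 4428 in the starved libraries and at 6243 to 9990 (median 7292) at 24 to 27 h. It rose by 0.93 ± 0.32 at 7 to 10 h (limma adjusted p = 0.032) and by 1.24 ± 0.32 at 24 to 27 h (limma adjusted p = 0.0081). The fold late was 3.88 in Cycle 1 and 1.44 in Cycle 2. Its paralog Eif5a2, far lower at 35.2 per kb of exon against 1442, stood at 0.03 ± 0.32 and was not called. Both enzymes that make hypusine rose with Eif5a: Dhps by 0.79 ± 0.14 and Dohh by 1.22 ± 0.19 at 24 to 27 h (limma adjusted p = 0.0012 and 0.00053).

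The elongation factors eEF1A and eEF2 had the highest levels per kb of exon among the genes named here, at 8485 for Eef1a1 and 6564 for Eef2. Of the exonic 50-base words of Eef1a1 46.5% recur in the genome, so its value may share reads with copies. Eef1a1, which delivers aminoacyl-tRNA, stood at 25897, 22670, 18931 and 17117 in the starved libraries and at 18047 to 23053 at 24 to 27 h. Its change of -0.04 ± 0.15 was not called in any window, and its sign at 24 to 27 h turned in edgeR. Eef2, the translocase, stood at 16878 to 23862 in starved cells and 20190 to 33288 at 24 to 27 h, at 0.22 ± 0.16 (limma adjusted p = 0.25). Eef1a2 was at 0 to 3.65 in starved cells.

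Of the 3 subunits that reload eEF1A, Eef1d rose by 0.96 ± 0.21 (limma adjusted p = 0.0038) and Eef1g by 0.56 ± 0.12 at 24 to 27 h (limma adjusted p = 0.0031, not called without the Cycle block). Eef1g shares 41.3% of its exonic 50-base words with other places in the genome. Eef1b2 stood at 0.12 ± 0.15. Eef1e1, which is named for the family but belongs to the complex of aminoacyl-tRNA synthetases, had the largest late rise of the 54. It stood at 158 and 147 in starved Cycle 1 and at 370 and 343 in starved Cycle 2, and at 398 to 663 at 24 to 27 h. It rose by 1.28 ± 0.32 at 7 to 10 h (limma adjusted p = 0.0075) and by 1.31 ± 0.32 at 24 to 27 h (limma adjusted p = 0.0063), which was 3.59-fold in Cycle 1 and 1.72-fold in Cycle 2.

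Eef2k, the kinase that switches eEF2 off, showed the deepest early fall of the 54. It stood at 666, 658, 607 and 518 in starved cells, at 143 to 376 at 2 to 3 h and at 167 to 326 at 4 to 6 h. The change was -1.24 ± 0.15 (limma adjusted p = 7.8e-05) and -1.41 ± 0.15 (limma adjusted p = 4.2e-05), and the level was 0.34 to 0.52 of starved over both windows and Cycles. By 7 to 10 h the libraries stood at 362 to 581 and overlapped the starved ones, with a change of -0.42 ± 0.15 (limma adjusted p = 0.038). That call at 7 to 10 h was lost with 8 single libraries left out and under 2 of the other settings. At 24 to 27 h the change was -0.42 ± 0.15 (limma adjusted p = 0.037). This call was lost without the Cycle block, with all libraries of a window, in edgeR and with some single libraries left out.

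**Figure D4:**
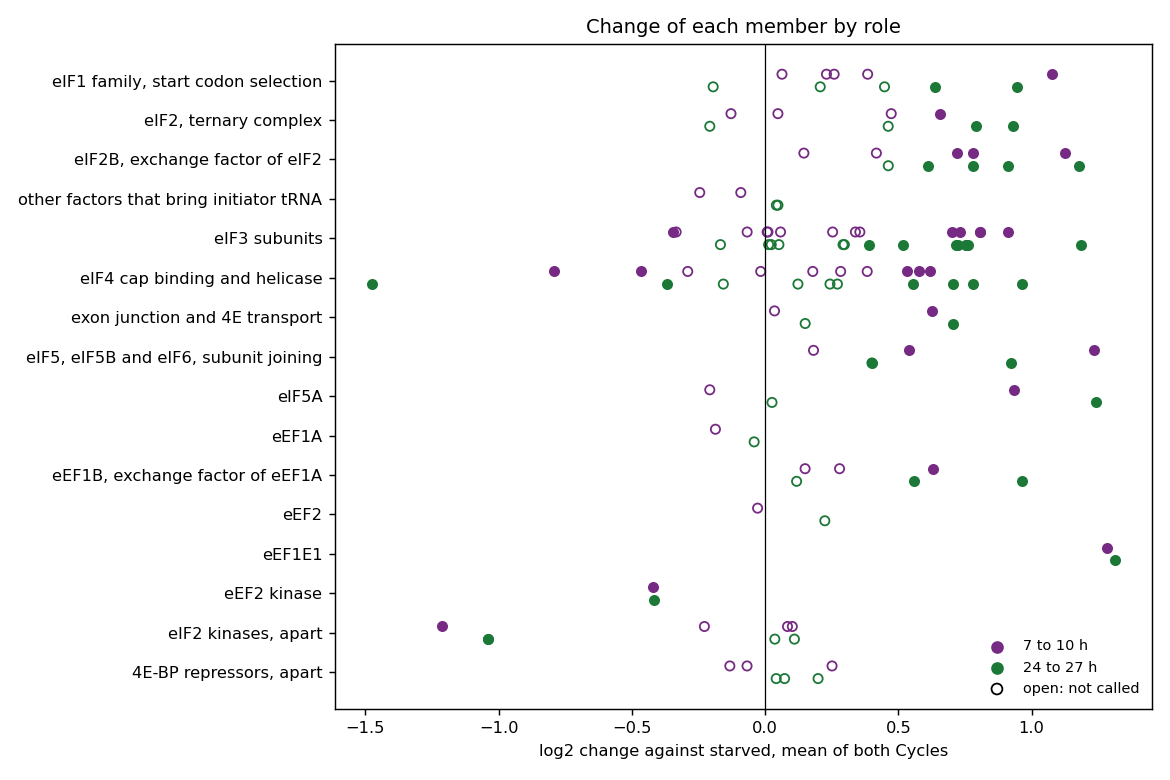
Log2 change of each tested gene at 7 to 10 h (purple) and 24 to 27 h (green), grouped by role, as the mean of both Cycles. Filled points were called and open points were not. Eef1a1 and Eef2 lie near 0, and the eIF4 group spans from -1.47 to 0.96 at 24 to 27 h.

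The 4 eIF2 kinases shut down initiation under different stresses by phosphorylating eIF2, and their mRNAs did not move together. Eif2ak2 (PKR), which senses double-stranded RNA and is induced by interferon, stood at 885, 799, 567 and 501 in starved cells and at 155 to 299 at 4 to 6 h, below every starved library. It fell by 1.70 ± 0.34 on the log2 scale there (limma adjusted p = 0.0018), to 0.19 of the starved level in Cycle 1 and 0.49 in Cycle 2. At 24 to 27 h it stood at -1.04 ± 0.34 (limma adjusted p = 0.025, not called without the Cycle block).

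Eif2ak3 (PERK), the kinase of the endoplasmic reticulum, was called lower later, already at 11 to 14 h by -0.70 ± 0.19 (limma adjusted p = 0.012). At 1 to 1.5 h it stood at -0.46 ± 0.19, below every starved library but not called (limma adjusted p = 0.12). It stood at -0.45 ± 0.19 at 2 to 3 h (limma adjusted p = 0.067) and at 0.13 ± 0.19 at 4 to 6 h, not called. It stood at 513, 614, 453 and 477 in starved cells, at 364 to 539 at 7 to 10 h and at 155 to 379 at 24 to 27 h. The change was -0.23 ± 0.19 at 7 to 10 h (limma adjusted p = 0.34) and -1.04 ± 0.19 at 24 to 27 h (limma adjusted p = 0.0014). Eif2ak4 (GCN2), which senses uncharged tRNA, was higher at 4 to 6 h by 0.53 ± 0.14 (limma adjusted p = 0.0080) and back at 0.10 ± 0.14 by 7 to 10 h. Eif2ak1 (HRI), the haem-regulated kinase, stood at 0.08 ± 0.13 and 0.11 ± 0.13 at 7 to 10 h and 24 to 27 h, not called.

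The 4E-BP repressors were not called in any window. In limma 0 of the 3 were called against starved at 24 to 27 h, 0 at an unadjusted p under 0.05, and edgeR called 0. Eif4ebp1 stood at 1387, 1229, 1465 and 1593 in starved cells and at 1460 to 1866 at 24 to 27 h, a change of 0.20 ± 0.16. Eif4ebp2 stood at 0.07 ± 0.20 and Eif4ebp3 at 0.04 ± 0.12. Eif4ebp2 alone passed the F test over all windows (limma adjusted p = 0.041). Its change was -0.50 ± 0.20 at 1 to 1.5 h (limma unadjusted p = 0.032, adjusted p = 0.11). It was -0.28 ± 0.20 at 2 to 3 h and 0.29 ± 0.20 at 4 to 6 h.

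Many mRNAs of the translation apparatus begin with a run of pyrimidines, the TOP motif, through which their translation is known to follow mTORC1 activity. Of the members, 9 are on a list of TOP mRNAs. At 24 to 27 h 2 of the 9 (Eef1d and Eef1g) were higher and the median change was 0.12, against 25 of the other 45 factors with a median of 0.52 and 20.1% of all genes. Of 84 ribosomal protein genes tested, the largest class of TOP mRNAs, 22 were higher at 24 to 27 h, with a median of 0.28. These are descriptions, with no test of the lists.

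The promoters of TOP genes are shown because the motif sits at the start of the mRNA. RefSeq windows (GRCm38.p6, 250 bases before to 50 after the annotated start) matched 49 of the 62 members, and 5 of the 9 on the TOP list. Each line runs 5′ to 3′ on the gene's strand from 50 bases before the start to 25 after it. Capitals mark a run of at least 7 pyrimidines that begins with C, nearest to the start. Such a run is a match of letters and need not be the TOP motif of the mRNA. Eef1b2 has no such run in this stretch. Of all genes in the table of promoters 25.6% hold such a run within 25 bases of the start, on the gene's strand alone, and of the 49 members 18 do.
Eef1a1 (chr9:78481700-78481774, minus strand): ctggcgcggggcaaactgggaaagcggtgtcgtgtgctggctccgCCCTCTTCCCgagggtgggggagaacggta
Eef1b2 (chr1:63176781-63176855, plus strand): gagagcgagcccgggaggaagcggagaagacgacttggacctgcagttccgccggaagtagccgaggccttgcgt
Eef2 (chr10:81176581-81176655, plus strand): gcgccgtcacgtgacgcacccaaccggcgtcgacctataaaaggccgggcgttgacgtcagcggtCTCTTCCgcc
Eif3f (chr7:108934365-108934439, plus strand): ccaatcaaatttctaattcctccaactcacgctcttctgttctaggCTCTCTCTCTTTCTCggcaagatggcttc
Eif4b (chr15:102073723-102073797, plus strand): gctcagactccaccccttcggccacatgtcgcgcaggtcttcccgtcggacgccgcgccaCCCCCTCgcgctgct

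Their changes at 24 to 27 h lay between -0.04 for Eef1a1 and 0.22 for Eef2, and none was called. In limma 0 of the 5 were called there, 0 at an unadjusted p under 0.05, and edgeR called 0. The run begins 5 bases before the annotated start in Eef1a1 and 4 bases before it in Eif3f, and 15 and 10 bases after it in Eef2 and Eif4b. No marked run begins at the annotated start itself, and whether any is the TOP motif was not tested.

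Members that rose can be set beside a second motif, the E-box CACGTG, which Myc and other factors bind and which reads the same on both strands. In the same RefSeq windows 12 of the 49 members hold it, or 24.5%, beside 8.09% of all genes in the table of promoters and 12.0% of the 9497 genes tested that have a window. Of the genes with a window, 5 of the 21 factors higher at 24 to 27 h hold it, and 7 of the other 22. The 5 that rose and hold it before the start are shown, a choice made after their values were seen. The lines give 60 bases on the gene's strand with CACGTG in capitals.
Eif4e (chr3:138527177-138527236, plus strand): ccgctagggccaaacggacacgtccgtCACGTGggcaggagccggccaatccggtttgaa
Eif4a1 (chr11:69672580-69672639, minus strand): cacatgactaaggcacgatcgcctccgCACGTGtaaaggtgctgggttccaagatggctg
Eif4g1 (chr16:20672646-20672705, plus strand): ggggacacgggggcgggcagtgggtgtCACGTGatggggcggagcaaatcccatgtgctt
Eif4h (chr5:134639473-134639532, minus strand): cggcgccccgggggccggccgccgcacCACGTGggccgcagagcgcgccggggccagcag
Eif5a (chr11:69921428-69921487, minus strand): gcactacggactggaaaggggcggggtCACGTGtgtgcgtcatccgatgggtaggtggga

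The capitals begin 64 bases before the annotated start in Eif4e, 189 in Eif4a1, 54 in Eif4g1, 96 in Eif4h and 74 in Eif5a. Eif4e, Eif4a1 and Eif4g1 encode the 3 parts of eIF4F, with rises of 0.71, 0.96 and 0.78 at 24 to 27 h. A rise there was a condition for being shown. Of the genes not higher at 24 to 27 h, Eef2 holds the motif 43 bases before the start and Eef2k 31 before it. Eif1b, Eif3a, Eif3f, Eif3k and Eif5a2, also not higher, hold it too. A match of letters is a description and not a bound site.

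Of 41 other translational control genes on a list drawn up for this comparison, 13 were higher and 9 lower at 24 to 27 h, beside 20.1% and 30.1% of all genes. At 7 to 10 h 7 were higher and 8 lower, beside 18.7% and 28.1%. The 3 highest at 7 to 10 h were Denr, a reinitiation factor, at 1.84 ± 0.14 (limma adjusted p = 1.01e-05), then Dohh at 1.05 ± 0.19 and Dhps at 0.70 ± 0.14. The 3 lowest were Deptor, an inhibitor of mTOR, at -2.06 ± 0.36 (limma adjusted p = 0.0011), Pdcd4, which holds eIF4A inactive, at -1.88 ± 0.44 (limma adjusted p = 0.0055), and Trib3, a target of the eIF2 stress response, at -1.73 ± 0.23 (limma adjusted p = 0.00023). Deptor had a mean of only 60.3 and 43.5 in the starved libraries of Cycle 1 and Cycle 2. By list at 24 to 27 h, 6 of 9 genes of termination and recycling were higher, and of 7 genes of the eIF2 phosphorylation response 1 was higher and 4 lower. Of 12 genes for mTORC1 and its regulators 2 were higher and 3 lower, of 11 cap and poly(A) regulators 2 and 2, and both hypusine enzymes were higher.

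The size of the change differed between the courses. At 24 to 27 h 44 of 54 factors had the same sign in both Cycles, and the median change was 0.68 in Cycle 1 and 0.28 in Cycle 2. All 27 factors called higher there had the larger change in Cycle 1. The starved levels of Eif5a, Eef1e1, Eif4a1 and Eif2s1 given above were all lower in Cycle 1 than in Cycle 2. Eef1g, also called higher, went the other way, at 696 and 584 in starved Cycle 1 and 477 and 446 in starved Cycle 2. Eif3m did so slightly, at 374 and 386 in starved Cycle 1 and 373 and 360 in starved Cycle 2. The others called higher had the lower mean starved level in Cycle 1. Whether the starting level or the response differed cannot be told apart with 1 course of each kind.

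**Figure D5:**
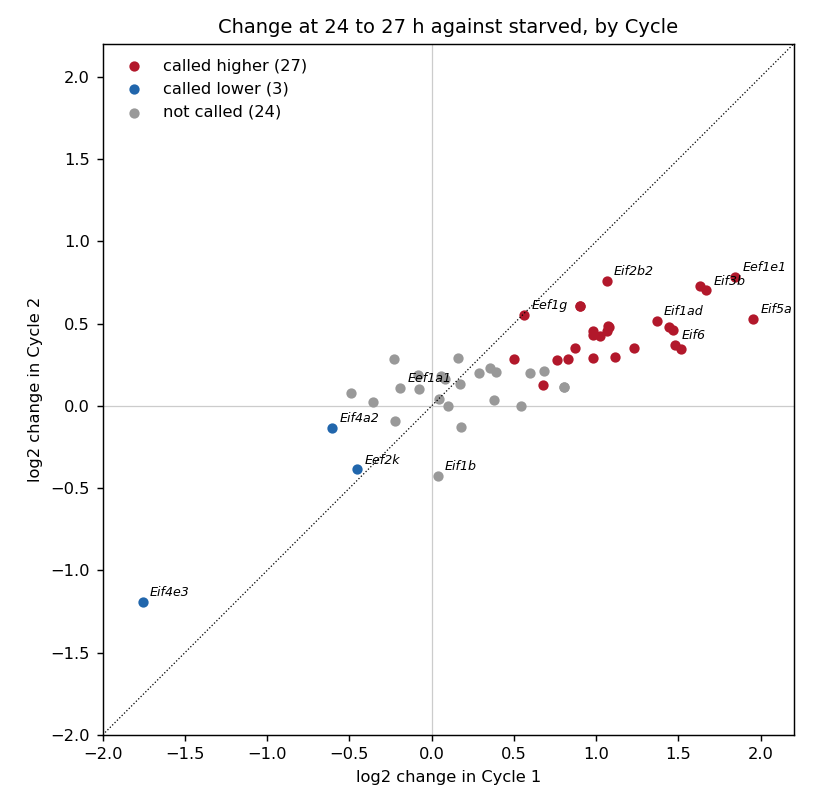
Log2 change at 24 to 27 h in Cycle 2 against that in Cycle 1 for the 54 factors tested, red for the 27 called higher, blue for the 3 called lower and grey for the others. The dotted line marks equal change, and every red point lies on or below it, Eef1g closest to it.

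Few factors were called between the middle and the end of the shared hours. Between 7 to 10 h and 24 to 27 h limma called 1 factor higher, beside 7.07% of all genes, and 1 lower, beside 10.5%. Eif4b was higher by 0.41 ± 0.11 (limma adjusted p = 0.031), from 2545 to 3073 at 7 to 10 h to 3484 to 4247 at 24 to 27 h, with no overlap. Eif4e3 was lower by -0.68 ± 0.17 (limma adjusted p = 0.022), from 96.5 to 150 to 59.4 to 94.0. Among the kinases Eif2ak3 was lower by -0.81 ± 0.19 (limma adjusted p = 0.014). When the 29 shared hours were fitted one by one, 22 factors were higher and 5 lower in this comparison, beside 28% and 25.7% of all genes, and neighbouring hours of a course are not independent.

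Cycle 1 alone continued to 38 h, so the following has no replicate. The median change of the 54 factors was 0.65 at 28 to 33 h and 0.41 at 34 to 38 h, and 40 of 54 stood lower in the later window, beside 40.7% of all genes. Eef1e1 went from a mean of 645 to 334, Eif4a1 from 1126 to 719 and Eif2b3 from 533 to 344. Eef2k went the other way, from 462 to 646, close to its starved values. Eif2ak2 and Eif2ak3 also stood higher in the last window, at 470 and 416 against 293 and 237. Eif5a stayed high at 7457, and Eif4e3 stayed low at 93.6.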

How the data were processed

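RNA sequencing data from 95 libraries of mouse embryonic fibroblasts were analysed. The authors aligned single-end reads of 50 bases to mm9 with STAR and counted reads on exons of both strands with HOMER. The deposited values are a signal, the reads scaled to a nearly common total (8420657 to 8916718 per library here) and not divided by length. Because both strands were counted, reads of overlapping antisense genes cannot be told apart. Of the 62 genes described, 14 hold values that are averages over transcripts. The table has 1 column that matched no library and was not used. Smallest steps gave whole reads for 94.2 to 96.2% of low values (within 0.1 reads), from which depth and the edgeR alternative were taken.

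Genes with a mean value of at least 10 were tested on log2(value + 1), a scale that understates changes of low genes. Values were averaged over the libraries of a window in each Cycle, for hours sampled in both courses (62 libraries), and fitted with limma 3.58.1 in R 4.3.3 with Cycle as a block and Benjamini-Hochberg adjustment over all genes tested. Cycle was taken as a block because the study divides each library by the starved libraries of the same series. As a check, the deviation of Cycle 1 from the mean of both Cycles was taken in each window. Over genes, these deviations were correlated between windows (36 pairs of windows, r from 0.12 to 0.827). edgeR 4.0.16 was run on the recovered reads and called 10188 of 12824 genes in its F test. The scripts were tested on simulated data. Figures were drawn with matplotlib 3.10.9.

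Genes were named by a rule: in each role the 2 highest and 2 lowest called at 7 to 10 h and at 24 to 27 h, both genes of each paralog pair, every kinase and repressor, and the 3 highest and 3 lowest called of the other control genes. Further genes in the text were chosen after their values were seen. The genes and lists were chosen with earlier results of these data known. Alternatives were other pseudocounts, filters, scalings and fits, and leaving out each library. Coordinates of genes are from the GENCODE annotation of mm9 (NCBIM37), and promoters from RefSeq. Genes without a promoter entry were Eef1d, Eif2b3, Eif3e, Eif4e3, Eef1g, Eif4g2, Eif4ebp3, Eif3i, Eif1a, Eif3j2, Eif6, Eif4ebp1 and Eif3h.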

Additional observations from a re-analysis of the deposited data

Results flagged for a closer look

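Of the named genes 3 differed between 7 to 10 h and 24 to 27 h by a limma test of the difference itself. Eif2ak3 was lower by -0.81 (adjusted p = 0.0141), with means of 411 ± 7.94 and 201 ± 36.8 in Cycle 1 and 466 ± 73.8 and 311 ± 46.0 in Cycle 2 (SD over the libraries of each window), and was called under 72 of 72 settings. Eif4b was higher by 0.41 (adjusted p = 0.0314), with means of 2873 ± 221 and 4085 ± 178 in Cycle 1 and 2970 ± 111 and 3702 ± 183 in Cycle 2, and was called under 70 of 72 settings. Eif4e3 was lower by -0.68 (adjusted p = 0.0218), with means of 133 ± 14.0 and 74.7 ± 9.43 in Cycle 1 and 109 ± 13.0 and 75.0 ± 14.6 in Cycle 2, and was called under 71 of 72 settings. The adjusted p-values over these settings reached 0.0375, 0.0654 and 0.0645.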

How the results depend on the processing

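With 2 courses, the windows have 1 mean per Cycle and the spread is shared over windows. The block removes a constant difference between the Cycles, and the fit treats successive windows of a course as independent, which they need not be. Standard errors can thus be small beside the gap between the Cycles in 1 window. For Eif5a at 24 to 27 h the log2 change was 1.95 in Cycle 1 and 0.53 in Cycle 2, with a standard error of 0.32. No result changed direction while called. Counts are of the 54 factors, and the causes of the moves below were not tested.

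Without the Cycle block the counts called lower were 2 at 7 to 10 h, 1 at 15 to 18 h and 1 at 24 to 27 h, and 0 were higher and 0 lower from 7 to 10 h to 24 to 27 h. Under that fit the calls of Eef1d, Eef2k, Eif3e and Eif4a1 at 7 to 10 h and of Eef1g, Eef2k, Eif2ak2, Eif4a2 and Eif5b at 24 to 27 h were lost. Fitting hourly libraries gave 23 higher at 2 to 3 h, 30 higher and 7 lower at 7 to 10 h, 5 lower at 15 to 18 h, and 22 higher and 5 lower between the later windows. Using all libraries of a window, or no filter, left 1 lower at 15 to 18 h. A mean of at least 100, and a trended variance, each gave 2 lower between the later windows. Median of ratios gave 28 higher at 2 to 3 h, and 0 higher and 2 lower between the later windows. Requiring a change over 1 gave 11 in the F test, 3 higher and 1 lower at 2 to 3 h, 4 and 0 at 7 to 10 h, 6 and 1 at 15 to 18 h, 4 and 1 at 24 to 27 h, and 0 and 0 between the later windows. edgeR gave 31 higher and 3 lower at 2 to 3 h, 2 lower at 7 to 10 h, 1 lower at 24 to 27 h and 2 lower between the later windows.

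Leaving out each library in turn gave 34 to 39 in the F test, 11 to 15 higher and 5 to 6 lower at 2 to 3 h, 18 to 21 and 2 to 5 at 7 to 10 h, 25 to 27 and 1 to 3 at 15 to 18 h, 26 to 29 and 2 to 3 at 24 to 27 h, and 1 to 1 and 1 to 2 between the later windows. Without the Cycle 2 library of 1 h before serum 2 were lower at 7 to 10 h, without that of 18 h in Cycle 2 1 was lower at 15 to 18 h, and without those of 26 h in Cycle 1 or 10 h in Cycle 2 2 were lower between the later windows.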
